A study of Mus musculus with 13 samples.

Results

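Fibronectin and 9 thrombospondin, tenascin and matricellular genes of the extracellular matrix were followed through spontaneous immortalization of mouse embryonic fibroblasts (MEFs). The 10 genes were fibronectin (Fn1), the thrombospondins Thbs1, Thbs2 and Thbs3, the tenascins Tnc, Tnn and Tnxb, and the matricellular genes Postn, Sparc and Spp1. They were chosen by name, with earlier results from these same libraries in view, and their symbols were mapped to 10 of the 55487 gene identifiers in the deposited count tables. The values that chose them were their levels in each library by state within genotype, so in the comparison of immortalized with primary cells they are a description, with no p-value for a member, and only counts of members passing a threshold are set beside the same counts over all genes.

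The study made poly-A RNA libraries from primary MEFs and from the immortalized lines that grew out of the same cultures. Wild-type (WT) cells gave 3 primary and 3 immortalized libraries, clones 3, 4 and 5. Cells labelled Prkd3-/-, the notation for loss of both copies of the protein kinase D3 gene, gave 3 primary libraries, clones 13, 14 and 15, and 4 immortalized libraries, clones 13, 13a, 14 and 15. Per the study's methods, which describe WT cultures, cells were grown with 10% fetal calf serum, raised to 20% after senescence to obtain colonies and returned to 10% once lines were immortal, and the sex and stage of the embryos are not given in the sources used here. Each line descends from colonies of a single culture, and lines 13 and 13a share a clone number, so the lines show what single cultures became. The 2 genotypes stand in separate count tables, and genotype and table cannot be told apart.

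Fibronectin is a large adhesive glycoprotein that fibroblasts assemble into fibrils, on which collagen and other matrix proteins are laid down and to which integrins bind. Thrombospondins, tenascins, periostin, SPARC and osteopontin are called matricellular proteins because they mainly modulate how cells adhere to, read and remodel the matrix. Many of them are made in development and wound repair, are low in resting adult tissue, and respond to growth factors, serum and tension in cultured fibroblasts.

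Totals ranged from 35273408 to 100441756 counts per library. The Prkd3 gene was counted at 69.2 to 73.7 CPM in WT primary libraries and at 33.6 to 43.2 in those labelled Prkd3-/-. In immortalized libraries it was 73.6 to 93.7 CPM in WT and 43.8 to 61.0 in Prkd3-/-, so every library labelled Prkd3-/- lay below every WT library. CPM is a gene's count relative to its library's total after TMM scaling, a method that sets the bulk of genes equal between libraries. The collagen gene Col1a1 and the filament gene Vim, both fibroblast genes, were high in all 13 libraries, at 7790 to 39200 and 2800 to 5820 CPM. Other fibroblast markers were very low in single lines, and some were already low in Prkd3-/- primary libraries. Decorin (Dcn) was at 0.661 CPM in WT line 3, 0.382 in Prkd3-/- line 13 and 0.701 in Prkd3-/- line 15. Lumican (Lum) was at 0.0483, 1.57 and 0.297 CPM, and Fap at 0.209, 0 and 0.027 CPM, in the same 3 lines. In WT primary libraries Dcn was at 124 to 132, Lum at 165 to 192 and Fap at 5.06 to 7.02 CPM. In Prkd3-/- primary clones 13, 14 and 15 Dcn was at 9.89, 30.5 and 4.04 CPM. Lum there was at 53.4, 12.1 and 10.4 CPM, and Fap at 0.749, 6.8 and 0.449 CPM. Prkd3-/- primary library 14 stood apart from the other 2 of its group, with a summed level of 10 macrophage markers of 1085.8 CPM against 91.9 and 218.2, and several members' values are also given without it.

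Promoter sequences are shown for the 4 genes whose levels differed most widely among libraries, periostin, thrombospondin 2, osteopontin and tenascin N. Each is the 250 bases before the RefSeq transcription start on GRCm38.p6, 5′ to 3′ on the gene's strand, with searched motifs in capitals. Positions are chr3:54360857-54361106 on the plus strand for Postn, chr17:14694263-14694512 on the minus strand for Thbs2, chr5:104434861-104435110 on the plus strand for Spp1 and chr1:160153576-160153825 on the minus strand for Tnn.
Postn: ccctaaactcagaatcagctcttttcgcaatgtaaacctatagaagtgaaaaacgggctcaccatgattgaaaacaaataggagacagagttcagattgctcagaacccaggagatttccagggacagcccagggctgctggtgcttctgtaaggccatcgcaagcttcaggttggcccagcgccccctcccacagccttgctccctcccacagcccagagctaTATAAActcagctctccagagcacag
Thbs2: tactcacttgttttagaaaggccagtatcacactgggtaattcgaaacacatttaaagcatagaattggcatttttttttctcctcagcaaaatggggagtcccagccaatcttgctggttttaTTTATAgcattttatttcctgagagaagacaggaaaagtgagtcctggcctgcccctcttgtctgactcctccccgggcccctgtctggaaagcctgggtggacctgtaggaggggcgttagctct
Spp1: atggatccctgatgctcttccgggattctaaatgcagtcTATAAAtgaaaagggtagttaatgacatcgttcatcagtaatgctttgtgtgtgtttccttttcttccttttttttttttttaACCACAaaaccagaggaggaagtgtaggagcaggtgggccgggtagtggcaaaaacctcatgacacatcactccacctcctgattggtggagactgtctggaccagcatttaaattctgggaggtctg
Tnn: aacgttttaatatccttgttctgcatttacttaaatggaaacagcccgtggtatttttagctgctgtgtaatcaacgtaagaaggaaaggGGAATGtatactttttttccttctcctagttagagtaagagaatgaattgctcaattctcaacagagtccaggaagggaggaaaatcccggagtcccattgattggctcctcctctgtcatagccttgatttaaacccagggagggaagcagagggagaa
The 4 motifs were searched on both strands. TATAAA, the TATA box letters, was found in 4 of the 8 members with a listed promoter, Postn, Thbs2, Spp1 and Tnc, and in 12.3% of 32536 promoters of the same length. In Postn it began 26 bases before the start. In Thbs2 and in Tnc its first base lay 126 bases before the start, and in Spp1 211 bases. TGTGGT, a RUNX core, was found in Spp1 alone among the 8 and in 14% of all promoters. GGAATG, a TEAD core, was found in Tnn alone and in 12.6% of all, and TGANTCA, an AP-1 core, in Tnxb alone and in 6.73% of all. Thbs3 and Sparc held none of the 4 in this window, and Fn1 and Thbs1 were not listed.

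**Figure D1:**
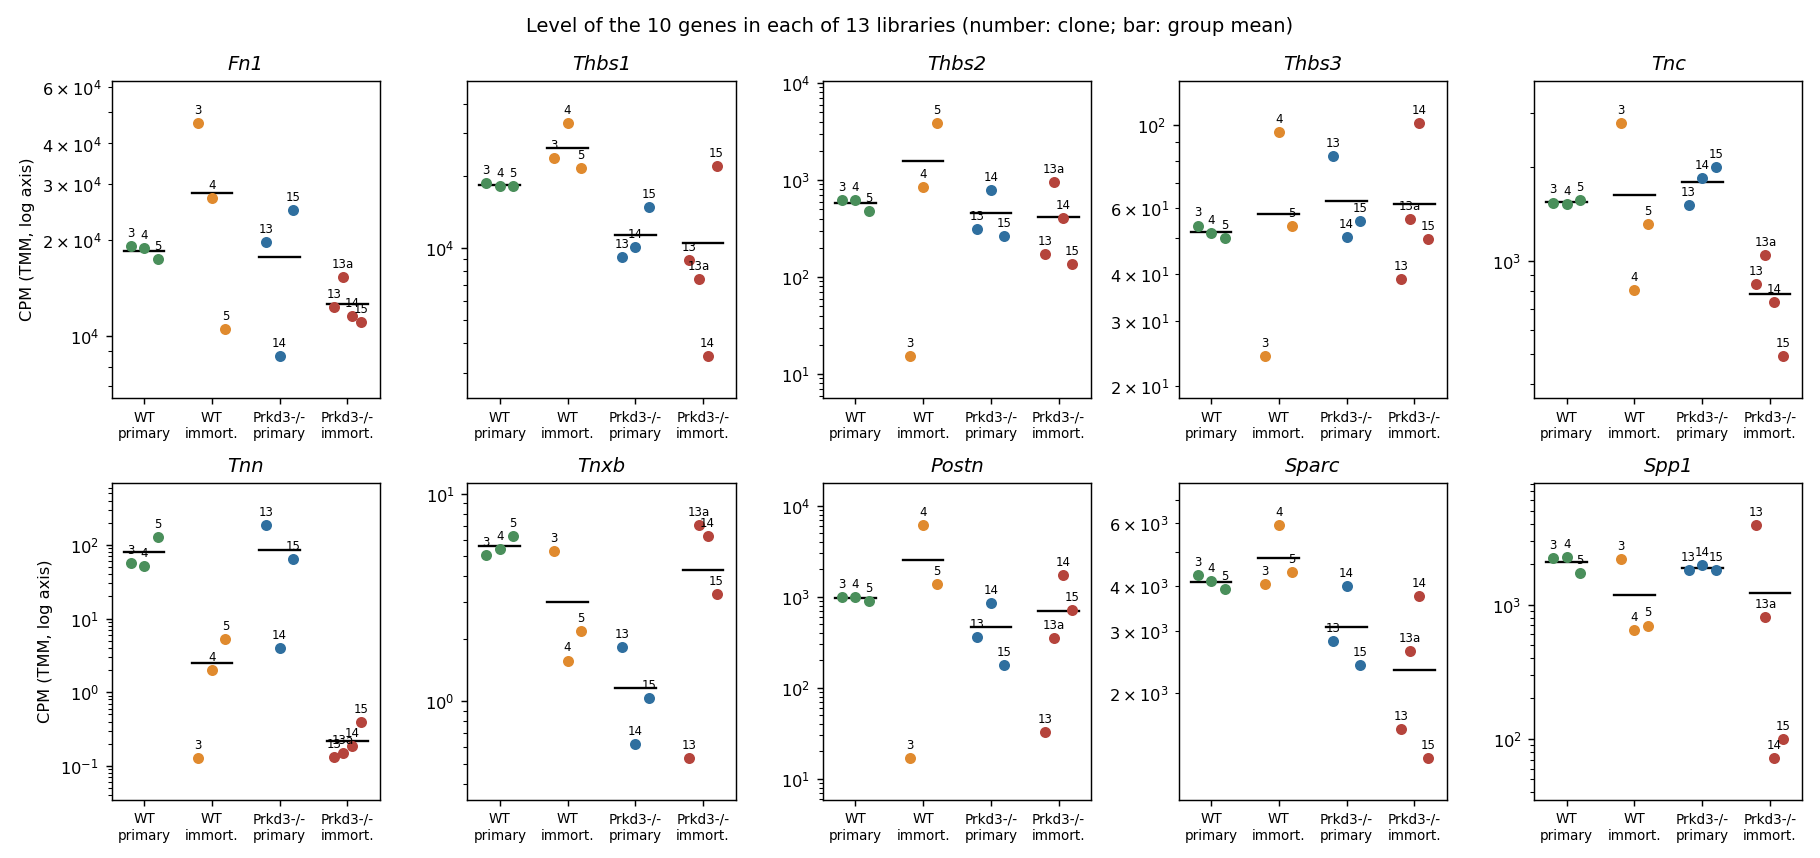
CPM of the 10 genes in each of 13 libraries on log axes that differ between panels. Points are libraries with their clone numbers, colours are the 4 groups, and bars are group means. WT primary libraries lie close together, while Thbs2, Postn and Spp1 spread widely among immortalized lines, and Tnn lies below 6 CPM in all 7 lines.

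Together the 10 genes made up a sizeable share of all counts. The share was 4.47 to 4.82% in WT primary libraries and 4.25 to 7.10% in WT lines. It was 3.04 to 4.69% in Prkd3-/- primary libraries and 2.32 to 3.66% in Prkd3-/- lines. Fn1 and Thbs1 alone accounted for 3.58 to 3.83% of counts in WT primary libraries, 3.11 to 6.28% in WT lines, 2.02 to 4.0% in Prkd3-/- primary libraries and 1.6 to 3.37% in Prkd3-/- lines. Duplicate reads are not independent molecules, and at these depths counting error is far smaller than the spread between libraries.

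Levels were compared between genes per kilobase of exon. In WT primary MEFs the order was Thbs1 at 3015 ± 52.6 CPM per kilobase (SD, n = 3), Fn1 at 1580.0 ± 78.1, Spp1 at 1259 ± 190.3, Sparc at 1085 ± 49.3, Tnc at 199 ± 2.77, Postn at 110.4 ± 6.10, Thbs2 at 82.4 ± 11.6, Tnn at 13.6 ± 7.46, Thbs3 at 10.7 ± 0.409 and Tnxb at 0.413 ± 0.0446. Spp1 and Sparc overlapped in that order, as did Tnn and Thbs3, and the other neighbours did not. In every WT library Thbs1 ranked between 4 and 8 among all genes by this measure. The first 4 places were held by Thbs1, Fn1, Spp1 and Sparc in all 4 groups, and Spp1 and Sparc traded places in WT lines. The SDs of neighbouring genes overlapped much more among lines, where Spp1 in Prkd3-/- lines was 747.1 ± 1118 CPM per kilobase (SD, n = 4).

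**Figure D2:**
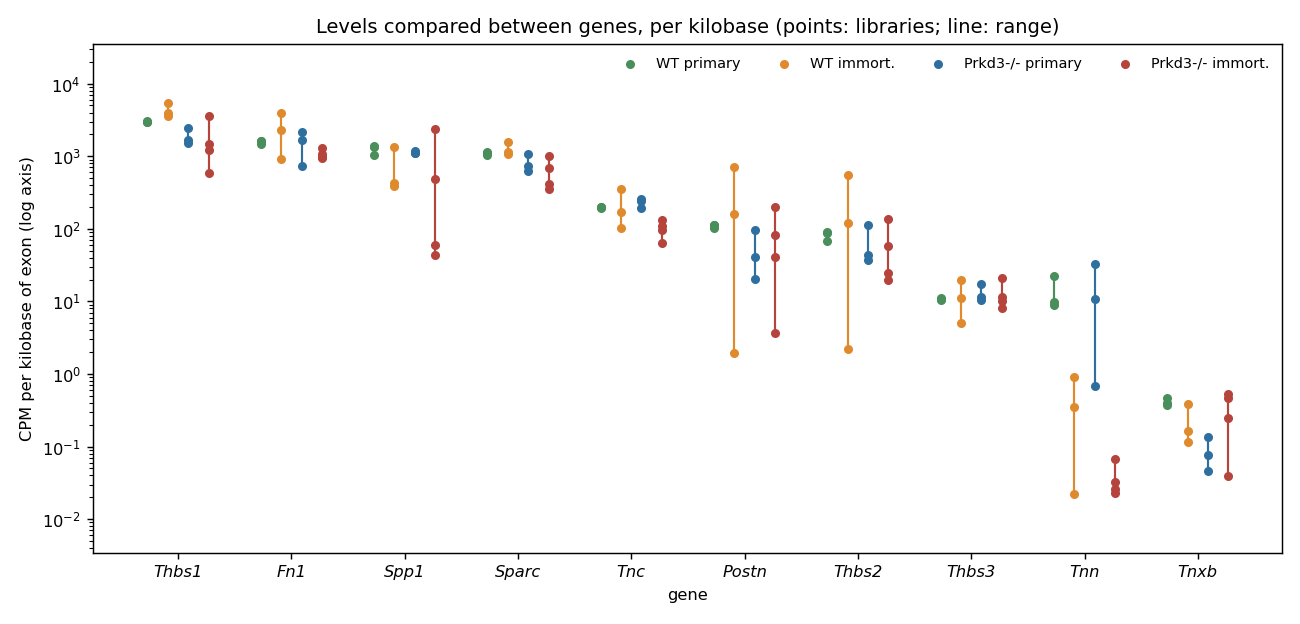
CPM per kilobase of exon on a log axis for the 10 genes, ordered by their mean over 13 libraries. Points are libraries, vertical lines span the range of a group, and colours are the groups. Thbs1, Fn1, Spp1 and Sparc lead in the means of every group, and Tnxb is at or below 0.525 throughout.

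Fibronectin, the fibril-forming ligand of several integrins, is encoded by Fn1 at chromosome 1, 71585520 to 71653200, on the minus strand (all gene coordinates are GRCm38, Ensembl release 102). Fn1 was at 19076, 18898 and 17414 CPM in WT primary clones 3, 4 and 5, and at 46348, 27069 and 10544 CPM in the lines of the same numbers. The 3 lines thus lay on both sides of a narrow primary range, with line 3 highest and line 5 lowest. In Prkd3-/- primary clones 13, 14 and 15 Fn1 was at 19758, 8677 and 24806 CPM, with clone 14 the lowest of all 13 libraries. In Prkd3-/- lines 13, 13a, 14 and 15 it was at 12347, 15298, 11552 and 11119 CPM, a range of only 1.38-fold inside the primary range. The fitted Log2FC of immortalized against primary cells was 0.60 (SE 0.53) in WT and -0.51 (SE 0.36) in Prkd3-/-. In WT it was 0.03 without line 3 and 0.99 without line 5, and in Prkd3-/- it was -0.83 without primary clone 14 and -0.18 without primary clone 15.

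Thrombospondin 1, a trimeric protein that binds CD47 and CD36 and can activate latent TGF-β, is encoded by Thbs1 at chromosome 2, 118111876 to 118127133, on the plus strand. Its level was 18671, 18175 and 18075 CPM in WT primary clones and 23698, 33177 and 21598 CPM in lines 3, 4 and 5. Every WT line was above every WT primary library, and the Log2FC was 0.51 (SE 0.27), or 0.31 without line 4. Across the Prkd3-/- primary clones Thbs1 was at 9124, 10040.5 and 14811 CPM, all below the WT primary libraries. Prkd3-/- lines 13, 13a, 14 and 15 held 8850.3, 7404, 3523 and 21911 CPM, on both sides of their primary range, and the Log2FC was -0.14 (SE 0.58). Without line 14 it was 0.15, without line 15 -0.80 and without primary clone 15 0.10.

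Thrombospondin 2, a related trimer that limits vessel growth and shapes collagen fibrils, is encoded by Thbs2 at chromosome 17, 14665500 to 14694235, on the minus strand. It was at 619.6, 628.5 and 483.1 CPM in WT primary clones. WT line 3 held 15.3 CPM, line 4 845.1 and line 5 3869, so line 3 was 40.4-fold below and line 5 8.01-fold above the primary culture of its own clone. Prkd3-/- primary clones held 309.4, 795.1 and 262.3 CPM, and lines 13, 13a, 14 and 15 held 173.5, 954.0, 404.2 and 136.4 CPM. Lines 13 and 13a, which carry the same clone number, lay on opposite sides of their primary culture, with log2 ratios of -0.83 and 1.62. The WT Log2FC of 1.45 (SE 1.48) turned to -0.42 without line 5, and the Prkd3-/- Log2FC of -0.13 (SE 0.74) turned to 0.54 without primary clone 14 and was -0.95 without line 13a.

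Thrombospondin 3, a pentameric member of the family is encoded by Thbs3 at chromosome 3, 89215180 to 89226837, on the plus strand. It was low, at 49.9 to 53.9 CPM in WT primary libraries, 24.1, 95.9 and 53.7 CPM in WT lines 3, 4 and 5, 50.2 to 82.9 CPM in Prkd3-/- primary libraries and 38.8 to 101.4 CPM in Prkd3-/- lines. Groups overlapped in both genotypes, and the Log2FC was 0.16 (SE 0.47) in WT and -0.04 (SE 0.36) in Prkd3-/-. Leaving out single libraries gave -0.41 to 0.53 in WT, the extremes without lines 4 and 3, and -0.40 to 0.20 in Prkd3-/-, the extremes without line 14 and primary clone 13, with -0.17 without primary clone 14.

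Tenascin C, a hexameric glycoprotein of wounds, embryos and tumor stroma that interferes with adhesion to fibronectin, is encoded by Tnc at chromosome 4, 63959785 to 64047015, on the minus strand. It was at 1542, 1527 and 1569 CPM in WT primary clones and at 2784, 806.0 and 1312 CPM in lines 3, 4 and 5, so the WT lines lay on both sides. The Prkd3-/- primary clones were at 1515, 1854 and 2006 CPM. Prkd3-/- lines 13, 13a, 14 and 15 held 841.8, 1043, 736.9 and 492.8 CPM, and every line was below every primary library of that genotype. The Log2FC was 0.08 (SE 0.45) in WT and -1.21 (SE 0.28) in Prkd3-/-. When each library was left out in turn, the WT value ran from -0.54 without line 3 to 0.41 without line 4, and the Prkd3-/- value from -1.40 to -1.05.

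Tenascin N, also called tenascin-W, is a restricted family member known from developing bone and from stroma. Tnn lies at chromosome 1, 160085029 to 160153580, on the minus strand. It was at 56.3, 52.5 and 129.4 CPM in WT primary clones and at 0.129, 2.01 and 5.26 CPM in lines 3, 4 and 5, which rests on 8, 119 and 345 counts. Prkd3-/- primary clones 13, 14 and 15 held 188.5, 4.01 and 63.8 CPM, with clone 14 far below the others. Prkd3-/- lines 13, 13a, 14 and 15 held 0.134, 0.151, 0.188 and 0.391 CPM, from 7, 11, 12 and 29 counts. Tnn was lower in all 7 lines than in every primary library of their genotype, by 21.4-fold to 1410-fold against the primary culture of the same clone. The Log2FC was -5.00 (SE 1.21) in WT and -8.60 (SE 1.29) in Prkd3-/-, with ranges of -6.21 to -4.44 and -9.16 to -7.29 when each library was left out in turn. Without primary clone 14 the Prkd3-/- value was -9.16.

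Tenascin X, which helps space collagen fibrils in skin and other tissues, is encoded by Tnxb at chromosome 17, 34660457 to 34719815, on the plus strand. It was the lowest of the 10 in WT primary libraries, at 5.07, 5.39 and 6.24 CPM, and was at 5.27, 1.57 and 2.18 CPM in WT lines 3, 4 and 5. Prkd3-/- primary clones held 1.82, 0.619 and 1.04 CPM, all below the WT primary libraries. Prkd3-/- lines 13, 13a, 14 and 15 held 0.534, 7.08, 6.24 and 3.30 CPM, so that 3 of the 4 were above every primary library of that genotype and line 13 was below. The Log2FC was -0.89 (SE 0.46) in WT, with -1.56 without line 3 and -0.58 without line 4, and 1.89 (SE 0.85) in Prkd3-/-. These levels rest on 28 to 517 counts.

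Periostin, a collagen- and integrin-binding protein of periosteum, tendon and wound stroma, is encoded by Postn at chromosome 3, 54361109 to 54391037, on the plus strand. It was at 994.5, 988.6 and 899.7 CPM in WT primary clones and at 17.0, 6211 and 1379 CPM in lines 3, 4 and 5. Line 3 was 58.6-fold below and line 4 6.28-fold above its own primary culture. Prkd3-/- primary clones held 360.9, 845.5 and 177.6 CPM, and lines 13, 13a, 14 and 15 held 32.3, 351.4, 1717 and 711.7 CPM, again on both sides. Per kilobase, Postn ranged from place 42 among all genes in WT line 4 to place 12025 in WT line 3. The Log2FC of 1.40 (SE 1.53) in WT turned to -0.46 without line 4, and that of 0.61 (SE 1.10) in Prkd3-/- turned to -0.34 without line 14 and was 1.39 without primary clone 14 and 0.21 without primary clone 15.

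SPARC, also called osteonectin, binds collagen and calcium and assists collagen assembly. Sparc lies at chromosome 11, 55394500 to 55423183, on the minus strand, and was at 4284, 4136 and 3914 CPM in WT primary clones and 4058, 5949.8 and 4394 CPM in lines 3, 4 and 5. In Prkd3-/- primary clones it was at 2811, 4007 and 2398 CPM, and in lines 13, 13a, 14 and 15 at 1585, 2624, 3756 and 1319 CPM. Sparc was the steadiest of the abundant members among WT lines, with a range of 1.47-fold, and the groups overlapped in both genotypes. The Log2FC was 0.22 (SE 0.21) in WT and 0.04 there without line 4. In Prkd3-/- it was -0.41 (SE 0.41), or -0.75 without line 14, -0.26 without line 13, -0.21 without line 15 and -0.17 without primary clone 14.

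Osteopontin, a secreted phosphoprotein that binds integrins and CD44 and is made by bone cells, macrophages and many cultured fibroblasts, is encoded by Spp1 at chromosome 5, 104435118 to 104441050, on the plus strand. It was at 2228, 2282 and 1714 CPM in WT primary clones and at 2208, 642.9 and 699.7 CPM in lines 3, 4 and 5. Lines 4 and 5 were below every WT primary library, and line 3 was within their range. Prkd3-/- primary clones were nearly equal, at 1811, 1969 and 1815 CPM. Lines 13, 13a, 14 and 15 held 3947, 806.3, 72.3 and 99.6 CPM, so line 13 was above and the other 3 below. The Log2FC was -0.81 (SE 0.52) in WT and -0.63 (SE 1.23) in Prkd3-/-, and the WT value was -1.62 without line 3 and -0.51 without line 4. The Prkd3-/- value was -2.52 without line 13, -0.24 without line 14 or line 15, and -3.12 with the clone number as a block.

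Since macrophages make osteopontin, the levels of 10 macrophage markers are set beside it. Their summed level was 686.2 to 717.1 CPM in WT primary libraries, 33.8 to 100.2 in WT lines, 91.9 to 1085.8 in Prkd3-/- primary libraries and 10.5 to 185.1 in Prkd3-/- lines. Of the 10 markers, 6 were called lower in WT lines by edgeR (adjusted p under 0.01 and a |Log2FC| of at least 1), C1qa, C1qb, C1qc, Csf1r, Cd68 and Tyrobp, beside 1.82% of all genes. No WT edgeR call stood with the embryo number as a block. In Prkd3-/- neither edgeR nor DESeq2 called any of the 10. In Prkd3-/- line 13, where Spp1 was highest, the sum was 17.8 CPM, C1qa and 5 other markers were at 0, and 7 of the 10 had 3 counts or fewer. Csf1r made up 16.3 CPM of that sum. It was at 8.32 and 10.9 CPM in Prkd3-/- lines 14 and 15, whose sums were 10.5 and 16.6 CPM. Of the Csf1r exon bases, 15.12% are shared with Hmgxb3. In the Prkd3-/- primary libraries Spp1 spanned 1.09-fold while the marker sum went from 91.9 to 1085.8 CPM. In bulk RNA, fewer cells of a type and less RNA per cell cannot be told apart. Markers of bone-forming cells, another source of osteopontin, summed to 30.7 to 135.9 CPM over 6 genes, with 125.3 CPM in line 13 and 135.9 in line 14, which had the highest and the lowest Spp1. Runx2, at group means of 44.3 to 80.0 CPM, made up most of these sums. Bglap, Bglap2 and Alpl had group means of at most 0.409 CPM, and in line 13, 3 of the 6 markers were at 0. The part of these markers in the Spp1 levels was not tested.

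**Figure D3:**
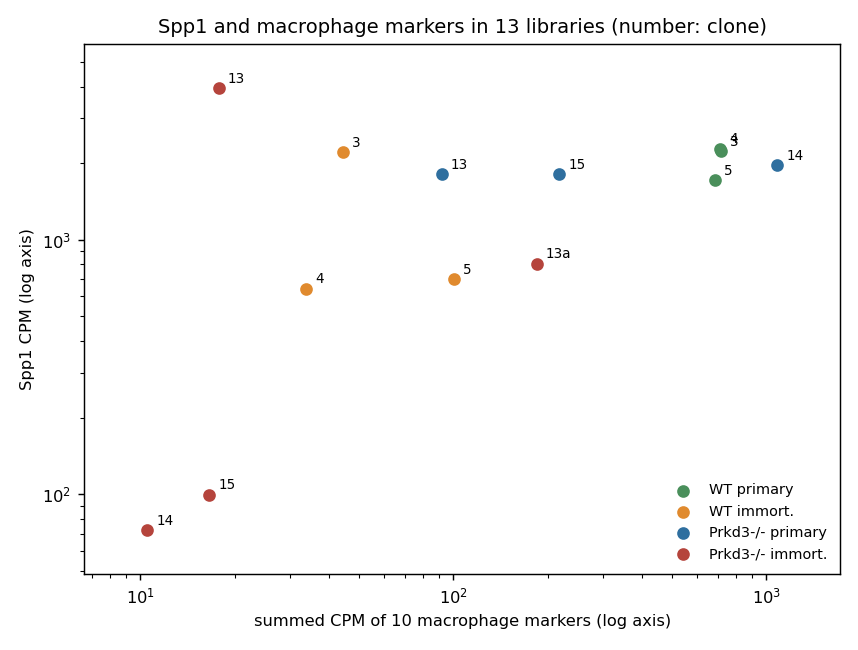
Spp1 CPM against the summed CPM of 10 macrophage markers in 13 libraries, both on log axes, with clone numbers beside the points and colours for the groups. Prkd3-/- line 13 has the highest Spp1, 3947 CPM, at a marker sum of 17.8 CPM, and lines 14 and 15 have the lowest Spp1 at sums of 10.5 and 16.6 CPM. Csf1r makes up most of these sums.

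Set against the primary culture of the same clone number, the 10 genes took different directions in different lines. Of the 10, 4 were above and 6 below in WT line 3, 6 and 4 in line 4, and 5 and 5 in line 5. In Prkd3-/- lines, 1 was above and 9 below in line 13, 2 and 8 in line 13a, 4 and 6 in line 14, and 3 and 7 in line 15. Tnn was the only member below its own primary culture in all 7 lines. Thbs1 was above in all 3 WT lines, and Fn1, Sparc and Tnc each took both directions over the 7 lines. WT line 3 combined the highest Fn1 and Tnc of all libraries with the lowest Postn and Thbs2. That line also had the highest summed level of 7 contractile markers, 11686 CPM against 2962.8 to 9669 elsewhere. Acta2 at 7220 and Tagln at 2750 CPM made up most of it, and 67.86% of Tagln exon bases are shared with other genes. Myh11 and Des went the other way. They were at most 20.8 and 7.09 CPM in WT lines and at least 70.1 and 22.4 in WT primary libraries. Line 3 also had the lowest summed level of 4 tenocyte markers, 9.01 CPM against 18 to 129.7. The part of either list in these levels was not tested. Prkd3-/- line 13 had the next lowest Postn, 32.3 CPM, but an Fn1 level close to its group.

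**Figure D4:**
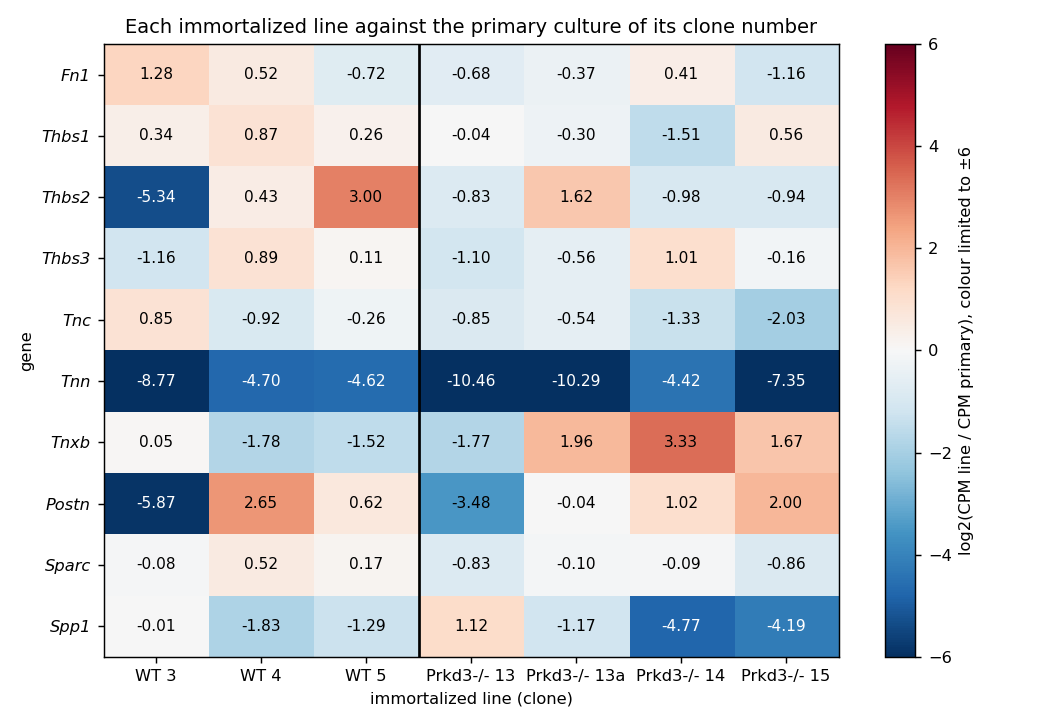
Log2 ratio of CPM in each of 7 immortalized lines (columns) to the primary culture of its clone number, for the 10 genes (rows); lines 13 and 13a share primary clone 13, and colour is limited to ±6. Tnn is blue in every column, Postn and Thbs2 run from -5.87 and -5.34 in WT line 3 to 2.65 and 3.00 in lines 4 and 5, and Spp1 reaches -4.77 in Prkd3-/- line 14.

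The spread among lines differed between the members. Among WT lines the highest level exceeded the lowest by 365-fold for Postn and 252-fold for Thbs2, by 36.4-fold for Tnn and by 4.40-fold for Fn1, with 1 count added to each library. The median over 9984 genes with a mean above 10 CPM was 1.37-fold, and a range as wide as that of Postn was seen in 0.160% of them. The members' levels in these libraries were in view at their choice, so this share is a description. Among the WT primary libraries, which lay much nearer to each other than those of the other groups, the median was 1.06-fold. Postn spanned 1.11-fold and Thbs2 1.3-fold there. Among Prkd3-/- lines Spp1 spanned 54.5-fold and Postn 53.2-fold, against a median of 1.88-fold, while Fn1 spanned 1.38-fold. In the Prkd3-/- primary libraries, where the median was 1.27-fold, Tnn spanned 46.9-fold, which rests on clone 14. Postn spanned 4.76-fold and Thbs2 3.03-fold in that group.

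The chromosomal neighbours of these genes were examined in the same lines. For each member, the 10 expressed genes on either side were compared in each line with the mean of the primary libraries, and the median log2 ratio of these 20 genes was taken. It stayed between -0.29 and 0.25 around Postn, between 0.06 and 0.59 around Thbs2, between 0.01 and 0.35 around Tnn and between -0.79 and 0.49 around Spp1 over the 7 lines.

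For the comparison of immortalized with primary cells, edgeR's quasi-likelihood test was run over all genes, and a gene was called at an adjusted p under 0.01 and a |Log2FC| of at least 1. In WT it called 361 of 19836 genes (1.82%) and none of the 10 members, with 1 member at an unadjusted p under 0.05, against 19.7% of all genes. DESeq2 at the same thresholds called 5.59% of genes with an adjusted p, among them 1 member, Tnn. With the embryo number as a block, edgeR called 0 WT genes, with 2784 at an unadjusted p under 0.05, so no edgeR call in WT stands under pairing, and DESeq2 was not run with a block. In Prkd3-/- edgeR called 0 of 20298 genes (0.0%), with 1331 genes (6.56%) and 2 members at an unadjusted p under 0.05, while DESeq2 called 0.781%, again with Tnn as the 1 member. Every line was separated from every primary library for 2 members in WT, Tnn and Thbs1, against 31.3% of all genes. In Prkd3-/- this was so for 2 members, Tnn and Tnc, against 9.45% of all genes. The median Log2FC of the members was 0.19 in WT and -0.27 in Prkd3-/-, beside 0.04 and 0.07 over all genes. Because these contrasts chose the members, the counts are a description from which nothing is read.

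Whether immortalization changed the members differently in the 2 genotypes was examined as an interaction over 13 libraries, at an adjusted p under 0.05. It is drawn from the same levels that were in view when the members were chosen. The members' values and p-values here are therefore a description, with the counts over all genes beside them. edgeR called 0 of 21197 genes (0.0%), with 841 genes (3.97%) and 2 members, Tnc and Tnxb, at an unadjusted p under 0.05, and DESeq2 called 38 genes (0.171%) and none of the members. The interaction Log2FC, Prkd3-/- minus WT, was -1.28 (SE 0.53) for Tnc, 2.77 (SE 1.05) for Tnxb and -3.59 (SE 1.65) for Tnn, each with an adjusted p of 1.0 in edgeR. For Fn1 it was -1.10 (SE 0.65) and for Thbs1 -0.64 (SE 0.70), with the same adjusted p.

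In primary cells, Prkd3-/- was compared with WT directly. The members' levels in these libraries, and in the lines compared below, were also in view at their choice. The members' p-values in both comparisons are therefore a description. edgeR called 156 of 20403 genes (0.765%) and none of the 10 members, with 2 members at an unadjusted p under 0.05 against 24.1% of all genes. DESeq2 called 833 genes (3.92%) and 1 member, Tnxb. Tnxb was lower in Prkd3-/- primary cells, with a Log2FC of -2.25 (SE 0.39) and an adjusted p of 0.0284 in edgeR, which misses the threshold, and of 1.62e-07 in DESeq2. All 3 libraries lay below all 3 WT libraries, and without Prkd3-/- clone 14 the edgeR call passed at a Log2FC of -1.88. Thbs1 had a Log2FC of -0.67 (SE 0.22, edgeR adjusted p = 0.131) and Postn of -1.04 (SE 0.53, edgeR adjusted p = 0.293), and both also lay below WT in all 3 libraries. Without clone 14 the value of Postn was -1.83 and without clone 15 -0.66. Such separation was seen for these 3 members and for 34.3% of all genes. Thbs2 had a Log2FC of -0.32 (SE 0.43, edgeR adjusted p = 0.70), which became -1.0 and passed the threshold without clone 14. In that setting edgeR called 1456 genes instead of 156, so the passes of Tnxb and Thbs2 stand among many more calls. Leaving out a WT clone instead gave as few as 2 calls. The values of Fn1, Tnn and Spp1 were -0.04 (SE 0.37), 0.12 (SE 1.12) and -0.13 (SE 0.14), and without clone 14 the first 2 became 0.28 and 0.68. Sparc had a Log2FC of -0.40 (SE 0.21, edgeR adjusted p = 0.293), or -0.65 without clone 14.

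In immortalized lines, edgeR called 8 of 19683 genes between the genotypes (0.0406%) and none of the members, with 4 members and 6.88% of all genes at an unadjusted p under 0.05, and DESeq2 called 0.778% and none of the members. Sparc, with a Log2FC of -1.04 (SE 0.40, edgeR adjusted p = 0.714), was the 1 member whose Prkd3-/- lines all lay below the WT lines, against 8.70% of all genes separated in either direction. Fn1 had a Log2FC of -1.15 (SE 0.48, edgeR adjusted p = 0.725), Thbs1 of -1.32 (SE 0.59, edgeR adjusted p = 0.736) and Tnc of -1.06 (SE 0.45, edgeR adjusted p = 0.725). Tnn had a Log2FC of -3.50 (SE 1.06, edgeR adjusted p = 0.649), and its Prkd3-/- lines held 0.134 to 0.391 CPM against 0.129 to 5.26 in WT lines. Without WT line 3 the value of Fn1 was -0.59 and that of Tnc -0.45, and without WT line 5 that of Tnn was -2.31. Values above 0 were seen here for 3 members, Thbs3, Tnxb and Spp1, and their SEs exceeded them.

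**Figure D5:**
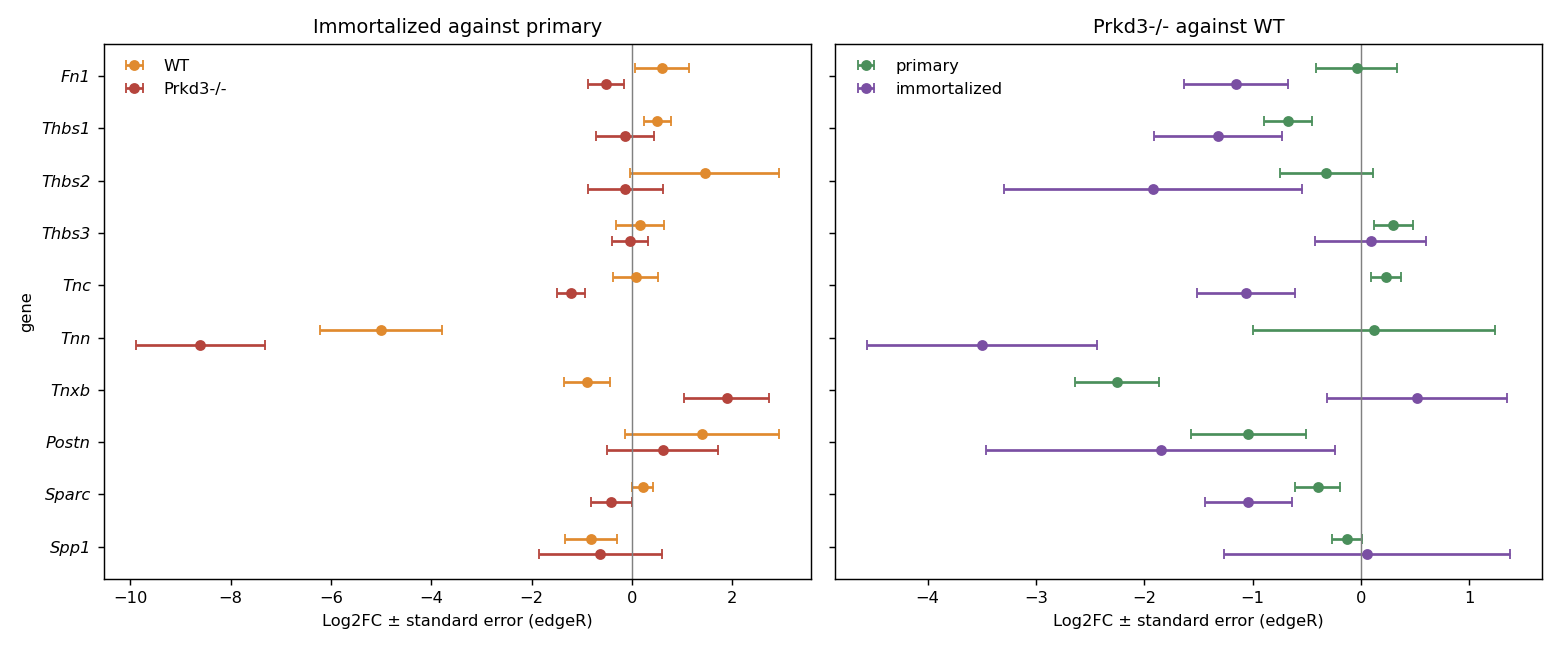
Fitted Log2FC of the 10 genes with standard errors from edgeR. Left, immortalized against primary cells in WT (orange) and Prkd3-/- (red); right, Prkd3-/- against WT in primary (green) and immortalized (purple) cells. Tnn has the values farthest from 0 on the left, -5.00 and -8.60, and Tnxb in primary cells stands at -2.25 on the right.

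The wider matrix system was examined in 4 lists written with these results known. Among 20 relatives of the members, such as other thrombospondins, CCN and SPARC-family genes, 16 were tested in WT and 14 in Prkd3-/-. edgeR called none in either genotype. At an unadjusted p under 0.05 there were 3 in WT and 2 in Prkd3-/-, beside 19.7% and 6.56% of all genes. DESeq2 called 3 in WT, Comp, Spock1 and Spock3, and 1 in Prkd3-/-, Thbs4. Beside them stood 5.59% and 0.781% of all genes, and the same shares stand beside the counts of the other lists. The edgeR filter did not keep Spock1 in WT or Thbs4 in Prkd3-/-. Spock1 was at 0.0613 to 0.207 CPM in WT primary libraries and at 0 in WT lines. Thbs4 was at 0.0647 to 9.91 CPM in Prkd3-/- primary libraries and at 0 to 0.135 CPM in Prkd3-/- lines. The 2 most abundant relatives per kilobase were Fstl1, a secreted follistatin-like SPARC relative, and Ccn1, an integrin-binding matricellular protein. Fstl1 was at 2110 ± 36.9 CPM in WT primary and 2270 ± 190.0 in WT lines, and at 1770 ± 281 and 1520 ± 1110 in Prkd3-/- (SD, n = 3, 3, 3 and 4). Ccn1 was at 564 ± 67.1 and 709 ± 392 CPM in WT and at 785 ± 169 and 651 ± 297 in Prkd3-/-. None of these differences passed the test.

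Among 19 receptors, chiefly integrins and also CD44, CD36, CD47, syndecans and stabilin 1, 18 were tested in each genotype. In WT, edgeR called 1 lower and none higher, against 1.82% of all genes, with 3 at an unadjusted p under 0.05. DESeq2 called 3 in WT, Itga4, Cd36 and Stab1. The edgeR call was Stab1, a scavenger receptor for SPARC that is known from macrophages and endothelium. Stab1 fell from 105.0 ± 9.76 CPM in WT primary cells to 5.50 ± 1.03 in lines (SD, n = 3), a Log2FC of -4.25 (SE 0.18, edgeR adjusted p = 0.000366). The adjusted p was 0.0184 with the embryo number as a block and 0.0561 in a joint fit, both above the threshold of 0.01, and ranged from 2.64e-90 to 0.0561 over 11 alternatives. Its fall went with that of the macrophage markers given above and with that of the summed level of 7 endothelial markers. The endothelial sum was 14.2 to 19.0 CPM in WT primary libraries and 0.725 to 2.91 in WT lines. Tek, Kdr and Vwf, at WT primary means of 6.79, 5.41 and 2.59 CPM, made up most of it. Pecam1, Cdh5, Cldn5 and Emcn had WT primary means of at most 0.766 CPM. The part of either list in the fall of Stab1 was not tested. In Prkd3-/- edgeR called no receptor, with 4 at an unadjusted p under 0.05, and DESeq2 called Itga4. Stab1 there was at 90.1 ± 101.0 CPM in primary cells and 13.3 ± 8.49 in lines. The endothelial sum in Prkd3-/- was 16.7 to 29.7 CPM in primary libraries and 1.74, 14.8, 18.1 and 14.2 CPM in lines 13, 13a, 14 and 15. The median Log2FC of the receptors was 0.03 in WT and -0.33 in Prkd3-/-, beside 0.04 and 0.07 over all genes.

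The 18 fibre partners included fibrillins, fibulins, elastin, lysyl oxidases and latent TGF-β binding proteins. They also included the basement membrane genes Nid1 and Hspg2, the cross-linking gene Tgm2, and Bmp1. Among them edgeR called none with immortalization in either genotype, with 5 in WT and 2 in Prkd3-/- at an unadjusted p under 0.05. DESeq2 called 1, Fbn2, in WT. Lox, the enzyme that cross-links collagen and elastin, had the highest mean per kilobase over the 13 libraries and was at 4810 ± 256 CPM in WT primary and 8600 ± 4220 in WT lines, and at 2740 ± 230.0 and 3250 ± 2250 in Prkd3-/-. Fbln2, a fibulin of elastic fibres and the next by that mean, was at 2090 ± 83.8 and 2830 ± 242 CPM in WT and at 3930 ± 436 and 2300 ± 522 in Prkd3-/-, and DESeq2 called its interaction. Between genotypes in primary cells, edgeR called 1 partner, elastin (Eln), named here after its values were seen. Eln was at 321 ± 38.6 CPM in WT primary and 13.5 ± 5.75 in Prkd3-/- primary cells (SD, n = 3), a Log2FC of -4.54 (SE 0.34, edgeR adjusted p = 0.00267), and its adjusted p rose to 0.0206, 0.0227 and 0.0191 without WT primary clone 3, 4 or 5.

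Among 18 regulators of these genes, such as TGF-β ligands and receptors, Smads, Srf and its cofactors, Yap1, Wwtr1, the Teads and Prrx1, edgeR and DESeq2 called none with immortalization in either genotype, with 2 in WT and 1 in Prkd3-/- at an unadjusted edgeR p under 0.05. Tgfb3, a TGF-β ligand, was at 316 ± 5.13 and 190.0 ± 85.4 CPM in WT and at 300 ± 11.0 and 137 ± 36.3 in Prkd3-/- (SD, n = 3, 3, 3 and 4), and neither difference passed the test.

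Some members share exon bases with other genes, and in the WT table read pairs there were counted for both. The counting options of the Prkd3-/- table are not given in the sources used here. The shared part was 18.75% of exon bases for Spp1 with Gm42793 on the same strand, 6.59% for Thbs3 with Mtx1, 3.42% for Thbs1 with Gm29233, 2.5% for Fn1 with Apol7d and 2.26% for Tnc with 8030451A03Rik. It was 0.02% for Tnxb, and Thbs2, Tnn, Postn and Sparc shared none.

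The genes whose log2 CPM over 13 libraries was most like that of a member were found among 15799 genes with a mean of at least 1 CPM. These Pearson correlations are a description, since libraries of a clone and a state share cells. For Fn1 they were Apol7d (r = 0.975), Igf1r (0.923) and Uhrf1bp1 (0.896), and for Thbs1 Gm29233 (1.0), Insr (0.938) and Tshz3 (0.936). The nearest for Tnc were 8030451A03Rik (0.988), Spsb1 (0.933) and Il11 (0.93), and for Spp1 Gm42793 (0.999), Kcnn4 (0.972) and Ptpre (0.964). In each of these 4 cases the first gene shares exon bases with the member. Thbs2 was nearest to the kininogen paralogs Kng1 (0.976) and Kng2 (0.953) and to Lgi2 (0.933), and Thbs3 to Tgfbi (0.901), Gamt (0.901) and C430049B03Rik (0.879). Tnn was nearest to Frmpd3 (0.94), C2cd4a (0.936) and Tfap2b (0.928), and Tnxb to Wscd2 (0.861), Hr (0.859) and Serpinb8 (0.85). Postn was nearest to the overlapping genes Mfrp (0.945) and C1qtnf5 (0.944) and to Lrp3 (0.943), and Sparc to Gramd3 (0.974), H2-T24 (0.922) and Fstl1 (0.922). Among the members themselves the highest values were 0.77 for Thbs3 with Postn, 0.74 for Thbs2 with Postn and 0.71 for Tnc with Spp1, and the lowest was -0.55 for Fn1 with Thbs2.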

How the data were processed

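Counts per gene were analysed for 13 poly-A RNA-seq libraries of MEFs. Raw counts were deposited by the authors in 2 tables, 1 per genotype. Per the file headers and methods, read pairs of the WT libraries were mapped to mm10 with STAR 2.7.10a and featureCounts (Subread 2.0.6) assigned them to genes of Ensembl release 102. That counting ignored strand and gave a pair to every gene it overlapped. For the Prkd3-/- table the labels list the same tools, and its counting options are not given in the sources used here, although genes and lengths are the same. Primary libraries were made from cultures of numbered embryos, and nothing further separates the samples of a group, so p-values measure the spread between these samples.

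From the counts, CPM was computed over all 13 libraries with TMM, and per kilobase with the deposited gene length. Each comparison was fitted with edgeR 4.0.16 (quasi-likelihood, robust, TMM, filterByExpr, Benjamini-Hochberg) in R 4.3.3 on the whole table, with calls at an adjusted p under 0.01 and a |Log2FC| of at least 1, or under 0.05 for the interaction. The SE is the Log2FC divided by the square root of F. All 10 members passed the filter in every fit. Alternatives were DESeq2 1.42.0, its size factors, no filter, the clone number as a block, a joint fit, lines 13 and 13a summed, and each library left out. Likeness and spread used log2 CPM with a prior count of 1, and neighbours a pseudocount of 0.1 CPM. Promoters came from RefSeq (GRCm38.p6), which listed 8 of the 10 members. Fits were tested on simulated counts.

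The members and lists were chosen with earlier results of these data known. All members are named. From each further list the genes named were up to 3 called per genotype with the smallest p or, where none was called, the 2 with the highest mean CPM per kilobase. A gene that this rule names is not reported here. For likeness the 3 genes with the highest r were named. The clone numbers pair WT libraries by embryo according to the study, and the titles give the clone of Prkd3-/- libraries. Deviations of same-numbered WT libraries from their group means correlated at -0.077, 0.058 and -0.074, and those of Prkd3-/- lines 13, 13a, 14 and 15 with their primary clone at 0.195, -0.372, 0.084 and 0.05. No pair of libraries within a group matched within sampling noise, but the WT primary libraries came much nearer to it than the others. Their pairs had a chi-square per degree of freedom of 5.88, 14.6 and 12.3, against 56.5 to 949 for pairs in the other groups. Fits that include the WT primary libraries rest on this small spread.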

Additional observations from a re-analysis of the deposited data

How the results depend on the processing

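Most member values kept their direction and side of the threshold, while the counts of genes called moved in many settings. DESeq2 called 1354 genes with immortalization in WT, where edgeR called 361, 190 in Prkd3-/- instead of 0, 38 in the interaction instead of 0, 833 instead of 156 between primary cells and 181 instead of 8 between lines. The joint fit called 0 genes in WT and 1 in Prkd3-/-, and the replicate block called 0 in WT. Without a filter 335 genes were called between primary cells. Leaving out 1 library gave 48 to 743 calls in WT, with 48, 50 and 66 without primary clone 3, 4 or 5 and 743 without line 5. It gave 0 to 0 in Prkd3-/-, and 0 to 2 in the interaction, with 2 without Prkd3-/- line 14. Between primary cells it gave 2 to 1456, with 1456 without Prkd3-/- clone 14, 75 without clone 15, and 2, 2 and 27 without WT clone 3, 4 or 5. Between lines it gave 0 to 10, with 10 without Prkd3-/- line 13, 2 without WT line 3 and 0 without each of the other 5. The cause was not tested.

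Among members, with the replicate block the interaction turned to 0.51 for Postn and to -2.06 for Spp1, and the WT Log2FC turned to -0.05 for Thbs2, -0.05 for Thbs3, -0.11 for Tnc and -0.06 for Postn. Pairing changed the sign of no other member and moved no other count of calls by over 1.5 times. With lines 13 and 13a summed, Spp1 turned to -0.51 in the interaction and to -0.65 between lines, and Thbs3 to 0.07 with immortalization in Prkd3-/-. Leaving out 1 library turned the interaction of Thbs2 (-2.39 to 0.29), Thbs3 (-0.58 to 0.37), Postn (-1.74 to 1.08) and Spp1 (-1.71 to 1.0). It turned the primary difference of Fn1 (-0.37 to 0.28) and Tnn (-1.21 to 0.68). Between lines it turned Thbs3 (-0.28 to 0.66) and Spp1 (-1.85 to 0.84), while Postn ran from -2.79 to 0.0. With immortalization it turned Thbs2, Thbs3, Tnc and Postn in WT. In Prkd3-/- it turned Thbs1, Thbs2, Thbs3 and Postn, as given for each gene above.

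Depth limits the lowest levels, Tnn in lines, at 7 to 345 counts, and Tnxb, at 28 to 517 counts over the 13 libraries, and intervals from counts cover counting error only.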
